A study of Mus musculus with 6 samples.

Results

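Genomic imprinting leaves 1 parental copy of a gene silent, and the 10 imprinted genes described here lie outside the H19, Mest and Dlk1 regions. They were taken by symbol from the total RNA count table, which lists 42450 genes, and all 10 were found and passed the filter on low counts that left 18905 genes for testing, Plagl1 only through its Srrm2+/- libraries. Peg3, Ndn, Snrpn, Plagl1, Zrsr1 and Impact are known to be expressed from the paternal copy. Zim1, Igf2r, Grb10 and Gnas are classed as maternally expressed, although the Gnas locus also makes paternal and biallelic transcripts. The parental class of each gene is background knowledge, because gene-level counts do not say from which copy a read came. Whether a class holds in these cells was not measured.

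The libraries were made from mouse embryonic stem cells of the male line E14tg2a.4, 3 from wild-type cells (WT) and 3 from cells with a gene trap in 1 copy of Srrm2 (Srrm2+/-). Srrm2 encodes a splicing factor of nuclear speckles. Cells of both genotypes were kept in medium with serum and LIF, the cytokine that sustains self-renewal. Before collection they were grown in serum-free ESGRO medium with LIF. The study took cells frozen in separate batches as replicates. The Srrm2+/- line is a single gene-trap clone (CG0630) and the passages of the lines differed, so genotype, clone and passage cannot be told apart.

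Library totals ranged from 54151532 to 69933465 estimated counts. Srrm2 itself was at 95.7 ± 3.94 CPM (counts scaled to library size; SD, n = 3) in WT and at 59.3 ± 3.02 CPM (SD, n = 3) in Srrm2+/-, a log2 fold change (log2FC) of -0.69 ± 0.05 (SE; edgeR adjusted p = 2.38e-05). The 8 stem cell markers summed to 5058 to 5241 CPM in WT and 4426 to 4537 CPM in Srrm2+/-. The labelled cell type was thus seen in every library. Of these markers 5 were called lower and 1 higher, beside 11.7% and 13.6% of all tested genes.

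Imprinting is set in the germline. A control region acquires DNA methylation in either the egg or the sperm, and after fertilization the mark is kept on that copy while the rest of the genome is reprogrammed. ZFP57, a zinc finger protein, binds a methylated hexamer in many of these regions and recruits TRIM28 and the histone methyltransferase SETDB1, which keep the copy silent. Many imprinted genes act on fetal growth, metabolism and behaviour, and cultured stem cells are known to gain or lose imprints.

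The promoters of some of these genes lie in or beside such control regions. Promoter windows of 3 of the genes are printed because each holds the hexamer that ZFP57 recognizes. Whether these windows lie in a control region was not examined. The motif searched was TGCCGC on both strands (GCGGCA on the reverse strand). The sequences are RefSeq promoter windows on GRCm38.p6, of 300 bases around a transcript start, written 5′ to 3′ on the strand of the gene with the motif in capitals. Plagl1 is shown from chr10:13090582-13090881 (plus strand), Snrpn from chr7:60005150-60005449 (minus strand) and Grb10 from chr11:12037371-12037670 (minus strand).
Plagl1: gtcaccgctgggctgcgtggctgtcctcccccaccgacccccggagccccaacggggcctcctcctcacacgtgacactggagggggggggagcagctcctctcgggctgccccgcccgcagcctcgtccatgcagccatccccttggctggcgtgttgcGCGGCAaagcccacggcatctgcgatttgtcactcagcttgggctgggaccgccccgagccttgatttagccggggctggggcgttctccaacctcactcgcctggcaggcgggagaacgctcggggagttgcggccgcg
Snrpn: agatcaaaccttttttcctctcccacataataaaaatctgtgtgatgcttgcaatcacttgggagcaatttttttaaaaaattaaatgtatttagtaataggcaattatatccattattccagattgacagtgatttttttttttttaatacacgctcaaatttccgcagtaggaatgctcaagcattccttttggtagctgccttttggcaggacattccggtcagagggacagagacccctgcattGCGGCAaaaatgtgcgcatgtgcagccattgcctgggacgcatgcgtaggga
Grb10: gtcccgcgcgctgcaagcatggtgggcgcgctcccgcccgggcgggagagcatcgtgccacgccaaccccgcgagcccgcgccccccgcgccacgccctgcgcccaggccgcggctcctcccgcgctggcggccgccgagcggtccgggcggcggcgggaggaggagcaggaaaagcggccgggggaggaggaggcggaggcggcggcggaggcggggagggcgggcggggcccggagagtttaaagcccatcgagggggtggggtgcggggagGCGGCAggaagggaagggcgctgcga
The hexamer lies at bases 161 to 166 of the Plagl1 window, 249 to 254 of the Snrpn window and 275 to 280 of the Grb10 window. Zim1 has it too, at bases 231 to 236 of its window. RefSeq windows were matched for 9 of the 10 genes, Impact being the exception. Of their 16 windows, 4 held the hexamer, and so did 3813 of all 32851 mouse windows of the same length (11.6%). CpG dinucleotides, the targets of DNA methylation, numbered 26 in the Plagl1 window, 7 in the Snrpn window and 45 in the Grb10 window, beside a median of 7 over all windows. A match to these letters is not a bound site, and methylation was not measured.

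Of the 10 imprinted genes, 6 were called higher and 1 lower in Srrm2+/- cells, with edgeR's quasi-likelihood test at an adjusted p below 0.05. Over all tested genes 25.3% were called, 13.6% higher and 11.7% lower. Above a mean log2 CPM of 1, where most of the imprinted genes lie, 16.4% were higher and 16.1% lower. The median log2FC of the 10 genes was 0.26, while that of all tested genes was -0.00254. The median absolute log2FC was 0.40 for the 10 genes and 0.19 for all. WT and Srrm2+/- libraries did not overlap for 6 of the 10, against 41.4% of all tested genes. Plagl1 passed the filter only through the group where it is high, so the set is also given without it. Of the 9 other genes 5 were called higher and 1 lower, and the libraries did not overlap for 5. Their median log2FC was 0.16 and their median absolute log2FC 0.35.

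**Figure D1:**
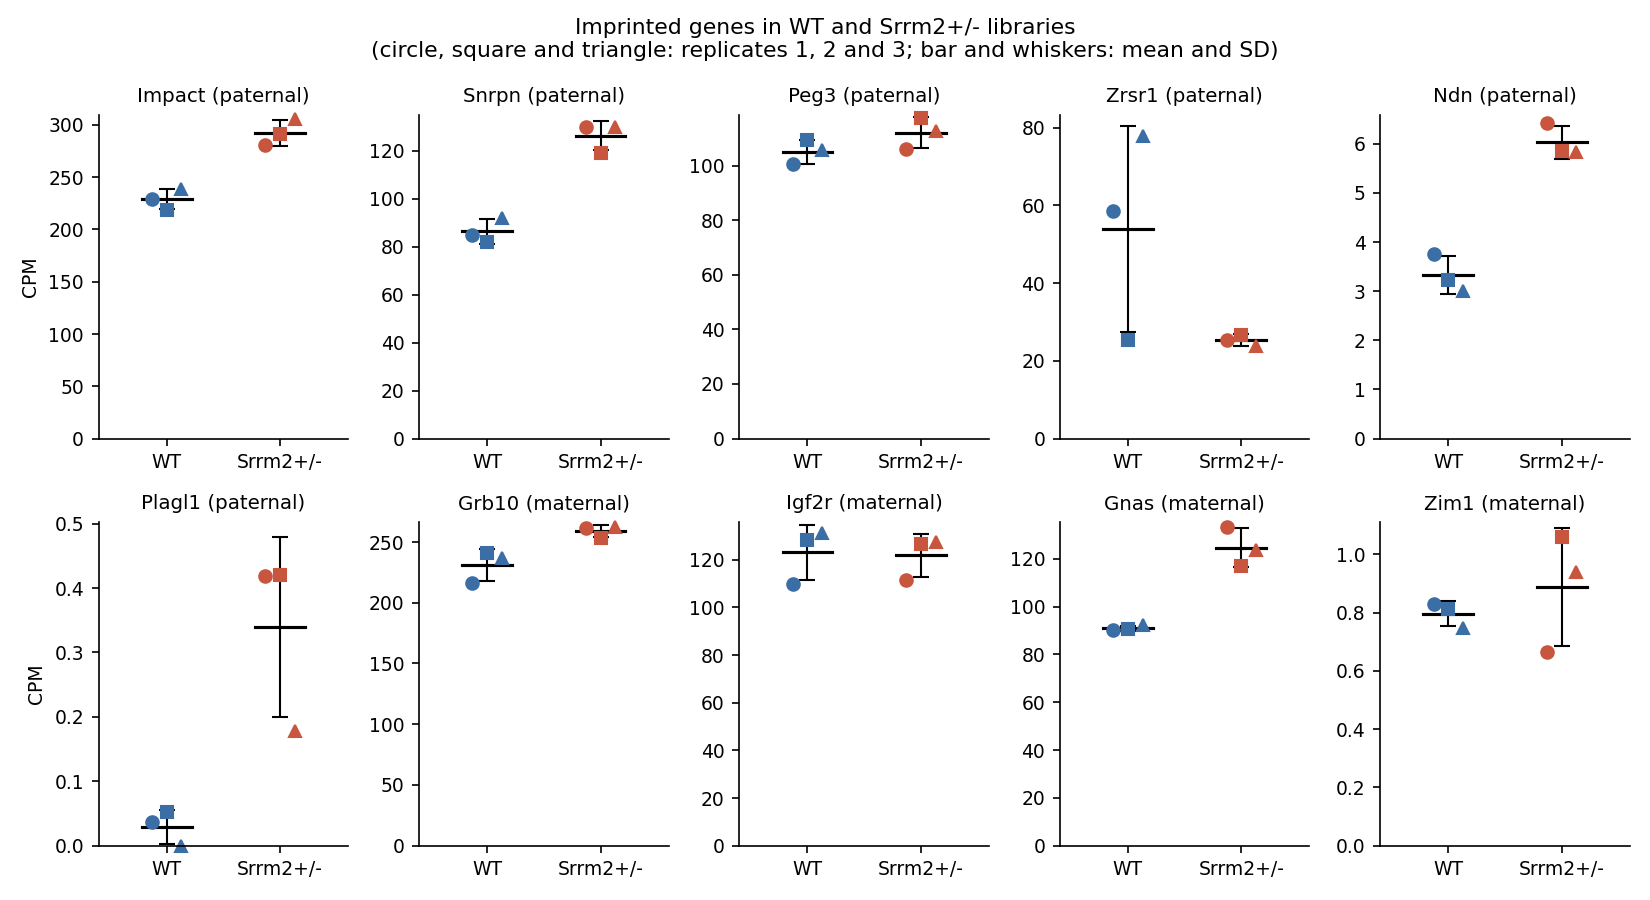
Level of each imprinted gene in CPM (linear axis from 0) in the 3 WT (blue) and 3 Srrm2+/- (red) libraries, with symbols for replicates and bars and whiskers for the mean and SD. Ndn, Snrpn, Plagl1, Impact, Grb10 and Gnas have all 3 Srrm2+/- points above all WT points, while the Zrsr1 point of WT replicate 2, at 25.4 CPM, sits among the Srrm2+/- points.

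Levels of different genes were set side by side only as CPM per kb of exon. Impact had the highest level in WT (44.7 ± 1.94 CPM per kb; SD, n = 3), followed by Snrpn (40.0 ± 2.37), a gap slightly larger than their summed SDs. Grb10 came next at 25.5 ± 1.45 CPM per kb. Igf2r (13.2 ± 1.24 CPM per kb) and Zrsr1 (12.0 ± 5.91) were within their spread of each other, and so were Gnas (8.13 ± 0.0995) and Peg3 (7.89 ± 0.329). Ndn stood at 0.903 ± 0.106, Zim1 at 0.0985 ± 0.00539 and Plagl1 at 0.00375 ± 0.00340 CPM per kb. In Srrm2+/- cells Snrpn (58.5 ± 2.84 CPM per kb) and Impact (57.0 ± 2.41) were within their spread on this scale, while Zrsr1 (5.63 ± 0.327) stood below Peg3 (8.41 ± 0.430). The order depends on the length used. Per kb of the longest transcript, Impact was at 60.9 ± 2.64 CPM in WT. Grb10 (45.7 ± 2.61) and Snrpn (41.6 ± 2.47) followed, within their spread of each other. Gnas (23.0 ± 0.282) came before Igf2r (13.9 ± 1.30), Peg3 (12.1 ± 0.505) and Zrsr1 (12.0 ± 5.91), which were within their spread. In Srrm2+/- cells the same scale set Impact (77.7 ± 3.29 CPM per kb) apart from Snrpn (60.8 ± 2.96), followed by Grb10 (51.2 ± 0.962) and Gnas (31.6 ± 2.07). Igf2r (13.7 ± 1.02) and Peg3 (12.9 ± 0.659) came after these, within their spread of each other.

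Among the paternally expressed genes, 4 of 6 were called higher and 1 lower, beside 13.6% and 11.7% of all tested genes. Their median log2FC was 0.45. Without Plagl1, the counts were 3 higher and 1 lower of 5, and the median was 0.35. The rises of Ndn, Snrpn and Impact were at most 1.81-fold. In bulk RNA a change in the number of cells of one kind and a change in RNA per cell cannot be told apart. Markers of other cell types were therefore summed in each library. The 8 fibroblast markers summed to 3.51 to 3.70 CPM in WT and 6.96 to 10.6 CPM in Srrm2+/-. Of the 6 tested, 4 were called higher (Postn, 1 of these, passed the filter through Srrm2+/- alone). Thy1 (1.93 to 1.19 CPM) and Pdgfra (0.327 to 0.248 CPM) went the other way and were not called. Dcn had 0 counts in every WT library and 4, 2 and 3 counts in Srrm2+/-, below the filter, as was Lum. The part of these markers in the rises was not tested.

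Plagl1 (ENSMUSG00000019817, chromosome 10, 13060504 to 13131694, plus strand) encodes a zinc finger transcription factor that restrains cell proliferation. The gene had 2, 3 and 0 counts in the WT libraries and 29, 29 and 11 counts in the Srrm2+/- libraries, or 0.0360, 0.0519 and 0 CPM against 0.419, 0.421 and 0.178 CPM. Every Srrm2+/- library lay above every WT library, Srrm2+/- replicate 3 being the lowest of its group. The 0 of WT replicate 3 allows up to 3 counts, or 0.0560 CPM. The log2FC was 3.43 ± 0.70 (SE; edgeR adjusted p = 0.00718). No WT library reached the filter's limit of 0.167 CPM and all 3 Srrm2+/- libraries did, so this gene could enter the test only with a difference, and its size and call are to be read with that limit. As a ratio of summed counts, 69 against 5, the level was 11.5 times that of WT (95% exact interval 4.71 to 36.6, which covers counting error only). The log2FC moved to 4.08 (edgeR adjusted p = 0.0183) without WT replicate 2 and to 2.90 (adjusted p = 0.0183) without WT replicate 3. Plagl1 thus stayed near the limit of detection in both genotypes. Its neighbour Phactr2, reported to be imprinted in some tissues, was at 7.83 ± 0.255 and 7.65 ± 0.209 CPM (SD, n = 3 each) and was not called (edgeR adjusted p = 0.801). Hymai, the non-coding partner of Plagl1, was not analysed here.

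The Prader-Willi and Angelman domain on chromosome 7 holds both Ndn and Snrpn. In this domain the paternal copy expresses a run of genes that start at or are controlled from the Snrpn promoter region, and the long transcript Snhg14 runs on from it against Ube3a, the ubiquitin ligase gene silenced on the paternal copy of neurons. Snrpn encodes SmN, a close relative of the core spliceosome protein SmB, and Ndn encodes necdin, a MAGE family protein abundant in neurons.

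Snrpn (ENSMUSG00000102252, chromosome 7, 59982495 to 60140219, minus strand) was at 85.1, 82.1 and 92.1 CPM in WT and at 130, 119 and 130 CPM in Srrm2+/-. The groups were well apart. Its level rose 1.46-fold (log2FC 0.55 ± 0.05, SE, edgeR adjusted p = 0.000145). Of its 31-base words, 34.5% also occur in transcripts of other genes and 23.7% in Gm38393, an annotated gene that covers Snurf and overlaps Snrpn. Gm38393 went from 101 ± 12.0 to 143 ± 3.61 CPM (SD, n = 3 each; log2FC 0.51, edgeR adjusted p = 0.00152). With Snrpn, Snurf and Gm38393 summed, the log2FC was 0.53, close to that of Snrpn alone. Snrpb, which encodes SmB, was at 179 ± 0.823 and 189 ± 6.31 CPM (SD, n = 3 each) and was not called (edgeR adjusted p = 0.186).

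Ndn (ENSMUSG00000033585, chromosome 7, 62346569 to 62350262, plus strand) has no 31-base word in common with another gene. It gave 3.77, 3.23 and 3.01 CPM in WT libraries and 6.42, 5.84 and 5.83 CPM in Srrm2+/- libraries. All Srrm2+/- values were above 5 CPM and all WT values below 4 CPM. The rise was 1.81-fold (log2FC 0.85 ± 0.12, SE, edgeR adjusted p = 0.000942).

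Other paternally expressed genes of the domain gave mixed results. Magel2, a MAGE family gene next to Ndn, had 0.306, 0.208 and 0.168 CPM in WT and 1.10, 0.682 and 0.891 CPM in Srrm2+/-, a 3.89-fold rise with no overlap, 1 WT library being under the filter's limit (log2FC 1.96 ± 0.32, SE, edgeR adjusted p = 0.00226). Snhg14 went from 92.4, 72.3 and 89.0 CPM to 119, 124 and 126 CPM (log2FC 0.54 ± 0.08, SE, edgeR adjusted p = 0.00151). Both genes were therefore higher in all 3 Srrm2+/- libraries. Snurf, the small upstream reading frame of the Snrpn transcript, was called higher as well (log2FC 0.61, edgeR adjusted p = 0.0140), but all of its words (100%) occur in Gm38393, and its call was lost without Srrm2+/- replicate 1 (adjusted p = 0.0543). Mkrn3 (log2FC -0.13, edgeR adjusted p = 0.246) and Peg12 (0.36, adjusted p = 0.232), which lie beyond Magel2, were not called. Of the genes expressed from the maternal copy in some tissues, Atp10a, a lipid flippase gene, rose from 8.11 ± 0.422 to 10.9 ± 0.389 CPM (SD, n = 3 each; log2FC 0.43, edgeR adjusted p = 0.00341). Ube3a was at 101 ± 2.56 and 94.7 ± 1.69 CPM (SD, n = 3 each) and was not called (log2FC -0.10, edgeR adjusted p = 0.0949). Snhg14 and Ube3a lie on opposite strands and 7.81% of the words of Snhg14 occur in Ube3a. The strand setting of the counting is not given in the sources used here.

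**Figure D2:**
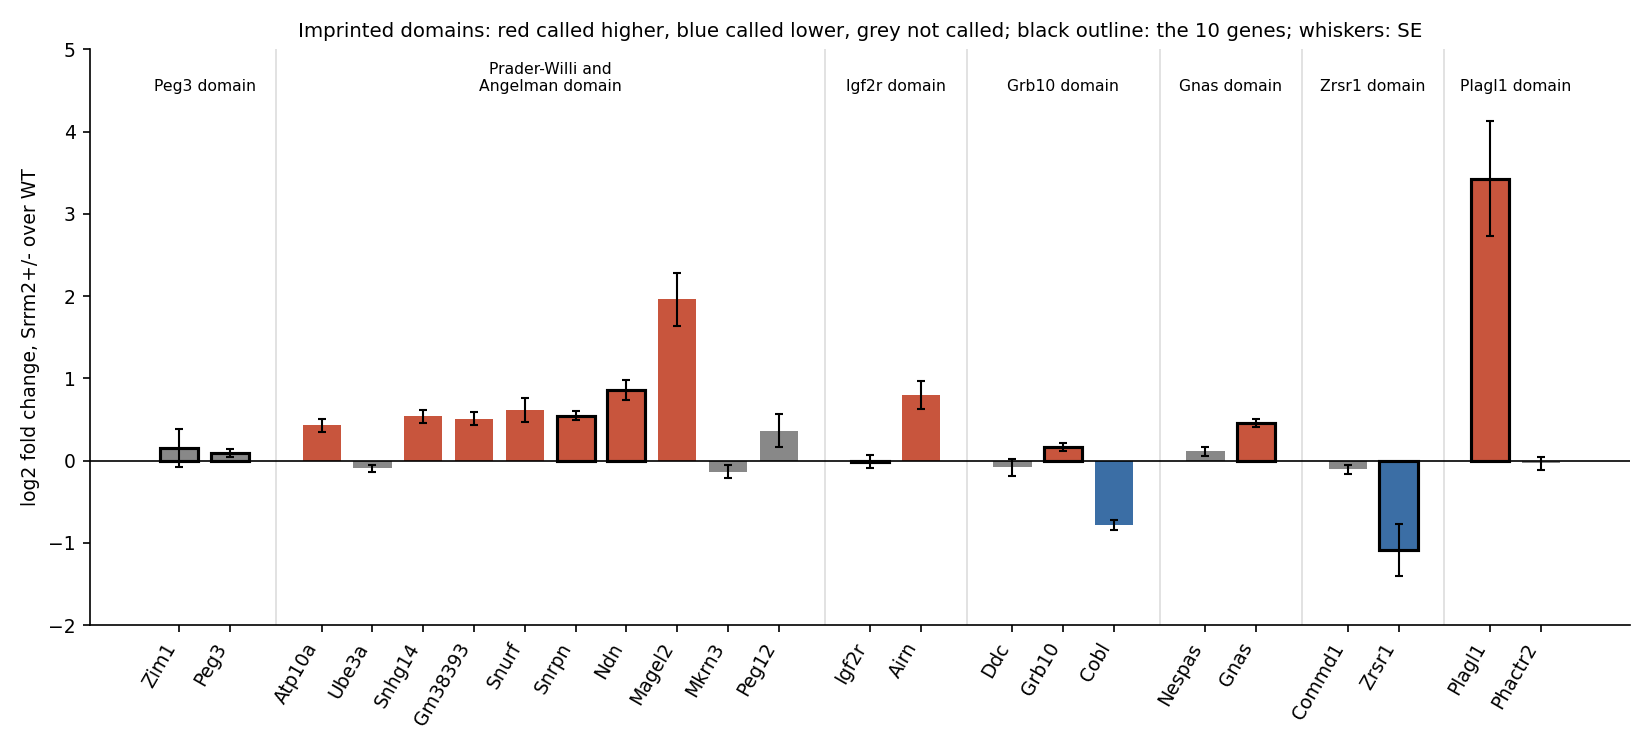
Log2FC of Srrm2+/- over WT (linear axis, whiskers are SE from edgeR), grouped by domain. Shown are the imprinted genes except Impact (black outlines), their tested domain neighbours and Gm38393. Red bars were called higher, blue bars lower and grey bars not called. In the Prader-Willi and Angelman domain 7 of 10 bars are red, led by Magel2 at 1.96, while Mkrn3, Peg12 and Ube3a are grey. The red bars of Snurf, Snrpn and Gm38393 are not independent, since these annotations overlap and share sequence. Of all tested genes 13.6% were called higher.

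Impact (ENSMUSG00000024423, chromosome 18, 12955852 to 12992950, plus strand) encodes a protein that binds GCN1 and so restrains the amino acid sensor kinase GCN2. It was at 229, 219 and 239 CPM in WT and at 281, 292 and 305 CPM in Srrm2+/-, without overlap. The rise was 1.28-fold (log2FC 0.35 ± 0.05, SE, edgeR adjusted p = 0.000838). GCN1, encoded by Gcn1, went from 114 ± 7.58 to 136 ± 7.59 CPM (SD, n = 3 each; log2FC 0.25, edgeR adjusted p = 0.0149), and this call was lost when Srrm2+/- replicate 2 or 3 was left out (adjusted p up to 0.0592). Eif2ak4, the gene of GCN2, was at 33.1 ± 0.366 and 34.1 ± 0.262 CPM (SD, n = 3 each) and was not called (edgeR adjusted p = 0.514).

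Peg3 (ENSMUSG00000002265, chromosome 7, 6703892 to 6730431, minus strand) encodes a large zinc finger protein known for its effects on growth and maternal care. It gave 101, 109 and 106 CPM in WT and 106, 117 and 113 CPM in Srrm2+/-. The groups overlapped and the gene was not called (log2FC 0.09 ± 0.05, SE, edgeR adjusted p = 0.228). Of its domain, Usp29 was at 0 counts in every library, and Zfp264, Zim2 and Zim3 were not analysed here.

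Zrsr1 (ENSMUSG00000044068, chromosome 11, 22972005 to 22976496, plus strand) encodes a relative of the splicing factor U2AF1 that acts in minor intron splicing, and was the one gene of the set called lower. Its levels were 58.6, 25.4 and 77.8 CPM in WT and 25.4, 26.7 and 23.8 CPM in Srrm2+/-. The Srrm2+/- libraries were tight, while WT replicate 2 lay at the Srrm2+/- level and the other WT libraries lay at more than 50 CPM, so the groups overlapped. The log2FC was -1.09 ± 0.32 (SE; edgeR adjusted p = 0.0351). It became -1.43 (edgeR adjusted p = 0.000137) without WT replicate 2 and -0.73 (edgeR adjusted p = 0.106) without WT replicate 3. DESeq2 (adjusted p = 0.0659) and limma voom (adjusted p = 0.0930) did not call it, and the call was lost in 8 of 15 alternatives in all, among them leaving out any library but WT replicate 2 (edgeR adjusted p of 0.0871 to 0.110). The range within WT was wider than the difference between the group means, 53.9 and 25.3 CPM.

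Zrsr1 lies within the bounds of Commd1, on the opposite strand, and 7.97% of its words occur in Commd1. Commd1, a regulator of copper handling and protein trafficking, gave 56.8, 54.5 and 56.0 CPM in WT and 55.6, 50.7 and 48.9 CPM in Srrm2+/- and was not called (log2FC -0.11 ± 0.05, SE, edgeR adjusted p = 0.181). WT replicate 2 did not stand apart for Commd1. Gm28048, an annotated gene that overlaps both, was at 8.83, 7.02 and 4.76 CPM in WT and at 4.52, 4.06 and 4.72 CPM in Srrm2+/- (log2FC -0.63 ± 0.20, SE, edgeR adjusted p = 0.0464). Here WT replicate 3, the highest library for Zrsr1, was the lowest of its group. With Zrsr1 and Commd1 summed, the log2FC was -0.51 (edgeR adjusted p = 0.0396). Zrsr2, the X-linked paralogue, was at 61.0 ± 3.32 and 53.6 ± 0.330 CPM (SD, n = 3 each; log2FC -0.19, edgeR adjusted p = 0.0179), and its call was lost when any library but WT replicate 3 was left out (adjusted p up to 0.0668). The U2AF subunit genes U2af1 (edgeR adjusted p = 0.324) and U2af2 (adjusted p = 0.422) were not called.

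**Figure D3:**
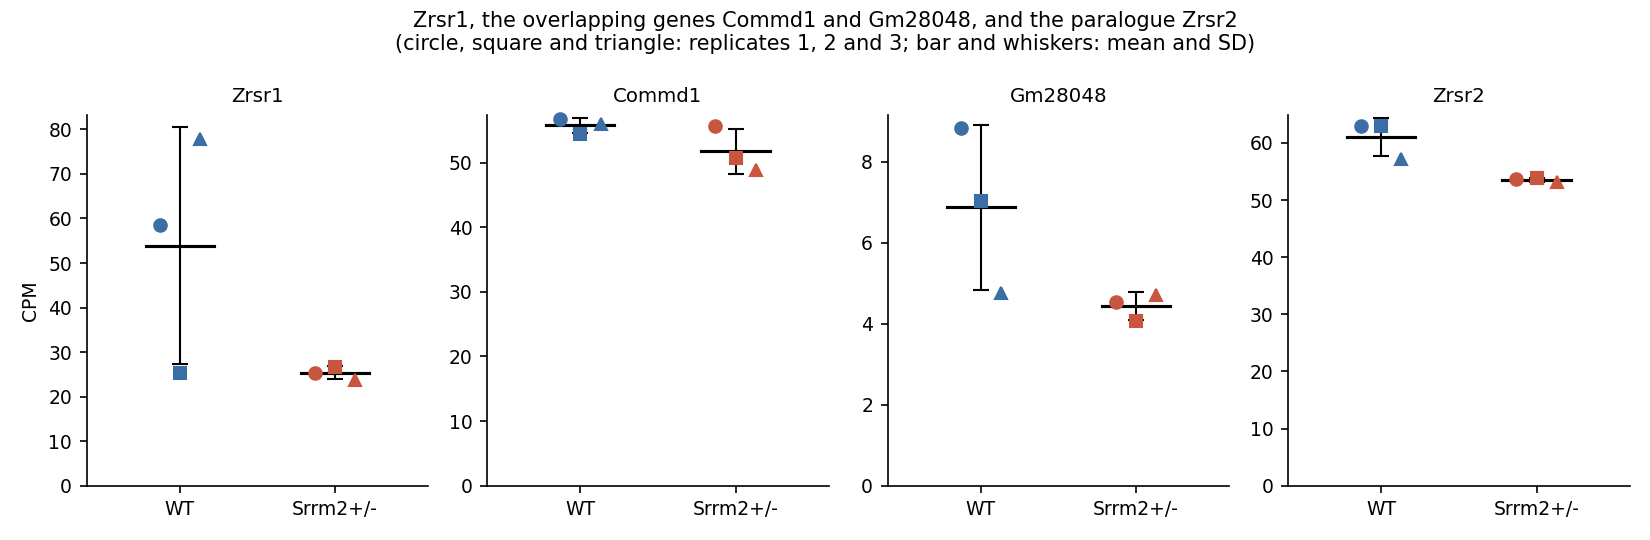
Levels of Zrsr1, of Commd1 and Gm28048, which overlap it, and of its paralogue Zrsr2 in CPM (linear axes from 0), with symbols for replicates of WT (blue) and Srrm2+/- (red) and bars and whiskers for mean and SD. WT replicate 2 (square) is low for Zrsr1, at 25.4 CPM, but not for Commd1, at 54.5 CPM, or Zrsr2.

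Among the maternally expressed genes, 2 of 4 were called higher and none lower, beside 13.6% and 11.7% of all tested genes. Their median log2FC was 0.16. Gnas and Grb10 rose, while Igf2r and Zim1 were not called. Gnas rose 1.37-fold and Grb10 1.12-fold. The log2FC of Gnas was 0.45 ± 0.05 (SE). Of the paternally expressed genes, Impact was at 0.35 ± 0.05, Snrpn at 0.55 ± 0.05 and Ndn at 0.85 ± 0.12. Differences between these genes were not tested. Whether the parental classes differ was not tested.

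Gnas (ENSMUSG00000027523, chromosome 2, 174284320 to 174346744, plus strand) encodes the stimulatory G protein alpha subunit, which couples hormone receptors to adenylyl cyclase. The locus also makes transcripts of paternal, maternal and biallelic expression that the gene-level count adds together. It was at 90.1, 90.4 and 92.2 CPM in WT and at 133, 117 and 123 CPM in Srrm2+/-. WT libraries were tight and lay below all Srrm2+/- libraries. The log2FC was 0.45 ± 0.05 (SE; edgeR adjusted p = 0.000258). Of its words, 19.9% occur in other genes, chiefly Gm20721 (11.6%). Summed with Nespas and Gm20721, it gave 0.40. Nespas, the paternally expressed antisense transcript of the locus, was at 19.7 ± 0.550 and 21.3 ± 1.00 CPM (SD, n = 3 each) and was not called (log2FC 0.11, edgeR adjusted p = 0.183). Whether Gnas and Nespas differ in their changes was not tested. Of the adenylyl cyclases tested, Adcy3, Adcy6 and Adcy9, and of the related alpha subunit gene Gnal, none was called (edgeR adjusted p of 0.449, 0.803, 0.321 and 0.209).

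Grb10 (ENSMUSG00000020176, chromosome 11, 11930508 to 12038683, minus strand) encodes an adaptor that dampens signalling by the insulin and IGF1 receptors. It had 216, 241 and 237 CPM in WT and 262, 254 and 263 CPM in Srrm2+/-, so the groups did not overlap but lay close. The log2FC was 0.16 ± 0.05 (SE; edgeR adjusted p = 0.0350), and the call was lost in 6 of 15 alternatives. In 5 of these a library was left out, any but WT replicate 2, with edgeR adjusted p of 0.0545 to 0.101. The neighbours split. Cobl, an actin nucleator gene imprinted in some tissues, fell from 64.2 ± 3.94 to 37.2 ± 2.23 CPM (SD, n = 3 each; log2FC -0.79 ± 0.06, SE, edgeR adjusted p = 3.46e-05). Ddc, the aromatic amino acid decarboxylase gene, was at 5.96 ± 0.364 and 5.63 ± 0.475 CPM (SD, n = 3 each) and was not called (edgeR adjusted p = 0.623).

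Grb10 acts on receptors that were measured too. Igf1r rose from 8.31 ± 0.756 to 12.1 ± 0.255 CPM (SD, n = 3 each; log2FC 0.55, edgeR adjusted p = 0.00152) and Insr from 9.61 ± 0.376 to 12.3 ± 0.770 CPM (SD, n = 3 each; 0.36, adjusted p = 0.00797). The receptor substrates moved further. Irs2 rose from 3.97 ± 0.281 to 10.1 ± 0.441 CPM (SD, n = 3 each; log2FC 1.35, edgeR adjusted p = 1.72e-05) and Irs1 from 1.98 ± 0.0232 to 4.69 ± 0.626 CPM (SD, n = 3 each; 1.24, adjusted p = 0.000257), although 30.6% of the words of Irs1 occur in Gm9747. Grb7 was higher (log2FC 0.30, edgeR adjusted p = 0.00281) and Grb14 was not called (0.80, adjusted p = 0.0758).

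Igf2r (ENSMUSG00000023830, chromosome 17, 12682406 to 12769664, minus strand) encodes the receptor that carries IGF2 to lysosomes and so limits growth. It was at 110, 128 and 131 CPM in WT and at 112, 127 and 128 CPM in Srrm2+/-. The groups lay over each other, and the log2FC was -0.01 ± 0.08 (SE; edgeR adjusted p = 0.922), with a sign that changed among the alternatives. Airn, the paternally expressed non-coding RNA that silences Igf2r on its own copy in most tissues, gave 0.937, 0.882 and 1.03 CPM in WT and 1.56, 1.67 and 1.72 CPM in Srrm2+/-. It was higher in every Srrm2+/- library, with a 1.74-fold rise (log2FC 0.80 ± 0.17, SE, edgeR adjusted p = 0.00768). Airn overlaps Igf2r on the other strand. Slc22a2 was at 0 counts in every library, and Slc22a3 (0.0537 ± 0.0167 and 0.132 ± 0.0791 CPM; SD, n = 3 each) did not pass the filter.

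Zim1 (ENSMUSG00000002266, chromosome 7, 6671269 to 6696450, minus strand), a zinc finger gene next to Peg3, was low in both genotypes. It had 0.829, 0.813 and 0.747 CPM in WT and 0.665, 1.06 and 0.940 CPM in Srrm2+/-. The groups overlapped, with Srrm2+/- replicate 1 lowest of all, and no call was made (log2FC 0.16 ± 0.23, SE, edgeR adjusted p = 0.684).

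**Figure D4:**
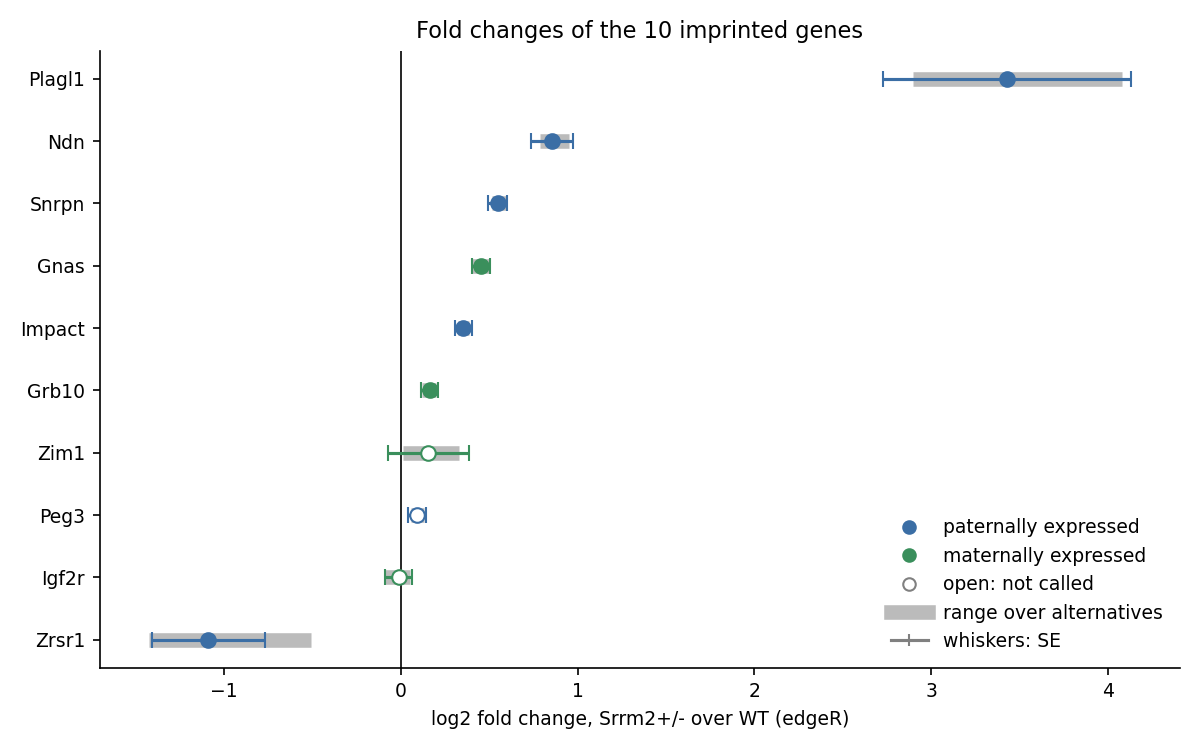
Log2FC of Srrm2+/- over WT for the 10 imprinted genes (linear axis; points and whiskers are the edgeR value and its SE, filled where called), coloured by parental class, with grey bars for the range over the alternatives. Plagl1 lies farthest right at 3.43 with the longest whiskers, and the grey bar of Zrsr1 runs from -1.43 to -0.51, the latter from its count summed with Commd1.

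Position was compared because imprinted genes sit in clusters. Within 500 kb of the 10 genes 126 protein coding and lncRNA genes are annotated, of which 71 were tested. Of these, 8 (11.3%) were called higher and 12 (16.9%) lower, beside 13.6% and 11.7% of all tested genes, and their median log2FC was -0.01. Around Snrpn all 3 tested neighbours were higher, and these were Snurf, Snhg14 and Gm38393. Snurf and Gm38393 overlap Snrpn and share its sequence, and Snhg14 runs on from its promoter region. These 3 are therefore not independent of Snrpn, and they are among the 8 called higher. Around Peg3 0 of 13 were higher and 3 were lower, namely Zfp583 (-0.49), Epp13 (-0.62) and Zfp28 (-0.49), 3 genes chosen for naming after their values were seen. Of the 13 tested domain neighbours fixed by name, 5 were called higher (Magel2, Airn, Snurf, Snhg14 and Atp10a) and 1 lower (Cobl), with a median of 0.11.

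Further imprinted genes and the factors that keep imprints were counted from lists. Of 17 other imprinted genes tested, 5 were higher and 2 lower, beside 13.6% and 11.7% of all tested genes. Their median log2FC was 0.20. Zdbf2 rose from 31.7 ± 1.83 to 107 ± 4.61 CPM (SD, n = 3 each; log2FC 1.75, edgeR adjusted p = 1.84e-07), and Gpr1, its neighbour in the same domain, from 0.813 ± 0.0917 to 1.64 ± 0.268 CPM (SD, n = 3 each; 1.01, adjusted p = 0.00599). Mcts2 (0.25, edgeR adjusted p = 0.00811) and Sfmbt2 (0.21, adjusted p = 0.00333) rose less. In the other direction, the amino acid transporter gene Slc38a4 fell from 227 ± 20.5 to 124 ± 4.74 CPM (SD, n = 3 each; log2FC -0.87, edgeR adjusted p = 2.49e-05). Jade1 was called at -0.14 (edgeR adjusted p = 0.0447), a call kept in 5 of 15 alternatives and lost whichever library was left out (adjusted p up to 0.123).

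Of the 17 imprint maintenance factors, 3 were higher, 3 lower and 11 not called. These counts are near the shares of genes above a mean log2 CPM of 1, 16.4% higher and 16.1% lower. The median log2FC of the factors was -0.00988. Zfp57 itself fell from 293 ± 8.08 to 246 ± 8.36 CPM (SD, n = 3 each; log2FC -0.25, edgeR adjusted p = 0.00261). Setdb1 was called lower too (-0.16, edgeR adjusted p = 0.0291). Its call was lost when any library but Srrm2+/- replicate 3 was left out (edgeR adjusted p up to 0.0839). Arid4a, a chromatin factor that acts at the Prader-Willi control region, was at -0.23 (edgeR adjusted p = 0.00768). Trim28, Dnmt1 and Uhrf1 were not called (edgeR adjusted p of 0.408, 0.184 and 0.958). Dppa3, which protects maternal methylation in the early embryo, rose from 22.9 ± 2.52 to 37.4 ± 1.47 CPM (SD, n = 3 each; log2FC 0.71, edgeR adjusted p = 0.000253). The H3K9 methyltransferase genes Ehmt2 (0.49, edgeR adjusted p = 5.02e-05) and Ehmt1 (0.26, adjusted p = 0.00594) rose as well. Among 21 partners and paralogues of the 10 genes, 6 were higher and 3 lower, beside 13.6% and 11.7% of all tested genes. Their median was 0.06. The lower ones were Zrsr2, Nsmce1 (-0.26, edgeR adjusted p = 0.00405) and Siah1a (-0.20, adjusted p = 0.0192, up to 0.0713 without WT replicate 1 or Srrm2+/- replicate 2; 39.5% of its words occur in other genes).

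Other marker lists were summed beside these. Their calls are to be read beside the 13.6% higher and 11.7% lower of all tested genes. Trophoblast markers summed to 52.0 to 52.9 CPM in WT and 32.3 to 35.3 CPM in Srrm2+/-, with 1 of 4 tested higher and 1 lower. Nearly all of this sum was Tfap2c, which fell from 50.6 to 30.8 CPM. Eomes was called higher (0.567 to 0.987 CPM), Gata3 (0.576 to 0.748 CPM) and Elf5 (0.677 to 0.534 CPM) were not called, and Cdx2 had 0 counts in every WT library and 5, 8 and 17 counts in Srrm2+/-. Neural markers summed to 92.3 to 96.5 CPM in WT and 65.0 to 70.3 CPM in Srrm2+/-, with 2 of 4 lower (Tubb3 and Pax6). Sox1 (0.801 to 0.995 CPM) and Map2 (17.7 to 16.1 CPM) were not called. Neurog2 had 0 counts in every WT library and 0, 0 and 1 in Srrm2+/-. Primitive endoderm markers summed to 2.32 to 2.70 CPM in WT and 2.54 to 3.57 CPM in Srrm2+/-, with 1 of 5 higher. This was Dab2 (0.448 to 1.14 CPM). Sox7 (0.521 to 0.306 CPM), Pdgfra (0.327 to 0.248 CPM), Gata4 (0.949 to 0.946 CPM) and Gata6 (0.124 to 0.242 CPM) were not called. Sox17 was below the filter. The part of all these markers in the changes of the imprinted genes was not tested.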

How the data were processed

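Total RNA from 3 WT and 3 Srrm2+/- cultures of mouse embryonic stem cells was sequenced. The authors deposited estimated counts per gene for the 6 libraries, made with Kallisto (version 0.46.1 in the submitters' processing notes) on GENCODE M24 and GRCm38. The estimates were rounded to whole numbers. Gene symbols, exon lengths and coordinates (GRCm38, counted from 1) came from GENCODE M21, which matched 42156 of 42450 identifiers.

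Genes past filterByExpr (minimum count 10, minimum total 15) were tested with edgeR 4.0.16 in R 4.3.3 (TMM, glmQLFit and glmQLFTest, two-sided, genotype as the sole term), with Benjamini-Hochberg adjustment over 18905 genes. The SE was the log2 fold change divided by the square root of F. CPM (counts scaled to library size) were computed on TMM-scaled totals, which ranged from 54151532 to 69933465 estimated counts before scaling. Shared sequence was measured as 31-base words of annotated transcripts on either strand.

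The members and lists were chosen with earlier results of these data known. Named were the 10 genes, Srrm2, tested domain neighbours, the called list members with the 4 largest changes in each direction and the partners set beside a member. The alternatives comprised normalization by RLE or upper quartile, DESeq2 1.42.0, voom of limma 3.58.1, other filters, the replicate block, each library left out, removal of short RNA and mitochondrial genes, stricter thresholds and, chosen after seeing the data, counts summed with overlapping genes. The scripts were tested on simulated data. Allelic expression, splicing and DNA methylation were not analysed here.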

Additional observations from a re-analysis of the deposited data

How the results depend on the processing

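The calls of Ndn, Snrpn, Impact and Gnas held in all 15 alternatives. Plagl1 was called in the 14 that gave it a value. It passed the main filter only through the group where it is high, so this is not support for its call. Plagl1 and Zim1 gave no value with the filter of 1 CPM. Where a log2FC of 1 or more in size was also required, only 1 gene of the set was called higher, and over all genes 813 were higher and 340 lower. At an adjusted p below 0.01 the number of the set called lower was 0, and over all genes 1574 were higher and 1205 lower. DESeq2 and limma voom also called 0 of the set lower. With a library left out the number called lower ranged from 0 to 1, that of domain neighbours called lower from 1 to 2 (Commd1 was added without Srrm2+/- replicate 1) and that of other imprinted genes called lower was 1. It was also 1, without Jade1, with upper quartile normalization, with the filter of at least 1 count or of 1 CPM, and with the replicate block. Igf2r ranged from -0.0886 to 0.0487 with a library left out, and its sign turned without WT replicate 2 (0.0193), WT replicate 3 (0.0367) or Srrm2+/- replicate 1 (0.0487). The cause of these changes was not tested.

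The replicate numbers are shared by the genotypes. Over all tested genes, the correlations of same-numbered deviations from the group means were -0.0285, -0.0337 and -0.0300. Such deviations also hold counting noise, so these values cannot settle whether same-numbered libraries were paired. With the replicate block, 0 of the set were called lower. Zrsr1 was then at -0.96 (edgeR adjusted p = 0.0716) and Grb10 at 0.17 (adjusted p = 0.0572). Plagl1 rests on few counts.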
